A study of Mus musculus with 2 samples.

Results

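The AP-1 genes described here are the FOS family (Fos, Fosb, Fosl1, Fosl2), the JUN family (Jun, Junb, Jund) and 3 further basic leucine zipper (bZIP) genes whose products pair with them (Atf3, Batf, Maff). The genes were chosen by their symbols, as a family whose values on these arrays had already been seen, so the pattern across its members is a description and supports nothing by itself. All 10 were measured, each by 1 probe set, among 19935 genes in all. RNA came from Ba/F3 cells, a mouse pro-B-like line that needs interleukin-3 (IL-3), made to express BCR-ABL constitutively, the fusion kinase of chronic myeloid leukaemia. Both cultures received imatinib, an ABL kinase inhibitor, at 5 µM for 6 h in medium with 10% serum. One culture was supplemented with IL-3 and the other was not, and each gave 1 array, titled as live cells. The design text describes cells with IL-3 as resistant to imatinib and cells without it as sensitive, and asks how the expression of cells that will survive differs from that of cells that will die. The groups follow the sample titles, although the labels conflict: the sample titled with IL-3 has a description that says it had none, and the other sample's source name might be read as lacking imatinib too.

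AP-1 is a dimeric transcription factor. FOS proteins dimerise with JUN proteins, JUN proteins can also pair among themselves, and the dimers bind the TRE, a short palindromic DNA element, or the related cyclic AMP response element (CRE). Several of these genes are immediate early genes, transcribed within minutes of a growth factor or a stress without new protein synthesis, and their mRNAs decay quickly. Growth factor receptors reach Fos through ERK and the serum response factor (SRF), and stress reaches Jun through JNK. BCR-ABL and the IL-3 receptor both signal through RAS and ERK.

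To show the DNA around the starts of the genes on which the results turn, promoter windows are printed below from RefSeq (GRCm38.p6), each holding 250 bases before and 50 from a transcript's annotated start. Fosb, Fos and Jun are shown because they had the 3 largest differences, and 1 of the 3 Maff windows because it was the only member window with a full CRE. Capitals mark matches on either strand to TGANTCA (the TRE), TGACG (the CRE half-site), TGACGTCA (the CRE, which contains the half-site), TGACNTCA (the CRE and the 8-base site of the Jun promoter), the CArG box bound by SRF and TATAAA.
Fosb, chr7:19309996-19310295, minus strand: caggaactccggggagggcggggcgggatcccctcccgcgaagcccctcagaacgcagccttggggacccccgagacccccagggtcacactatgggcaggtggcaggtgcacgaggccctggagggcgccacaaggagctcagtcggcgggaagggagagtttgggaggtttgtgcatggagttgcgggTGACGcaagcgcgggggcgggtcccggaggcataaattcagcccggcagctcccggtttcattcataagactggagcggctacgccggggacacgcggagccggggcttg
Fos, chr12:85473640-85473939, plus strand: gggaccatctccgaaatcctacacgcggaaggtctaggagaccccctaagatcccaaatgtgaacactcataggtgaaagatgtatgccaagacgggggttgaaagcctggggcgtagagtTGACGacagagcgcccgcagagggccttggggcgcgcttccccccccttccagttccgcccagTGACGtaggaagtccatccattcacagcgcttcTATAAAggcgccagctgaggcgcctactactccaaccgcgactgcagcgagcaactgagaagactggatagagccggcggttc
Jun, chr4:95052173-95052472, minus strand: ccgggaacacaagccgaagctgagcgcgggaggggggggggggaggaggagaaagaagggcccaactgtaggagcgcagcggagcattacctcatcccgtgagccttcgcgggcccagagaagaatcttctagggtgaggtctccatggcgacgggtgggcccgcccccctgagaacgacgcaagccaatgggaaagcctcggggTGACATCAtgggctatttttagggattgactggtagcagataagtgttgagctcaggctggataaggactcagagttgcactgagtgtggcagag
Maff, chr15:79347270-79347569, plus strand: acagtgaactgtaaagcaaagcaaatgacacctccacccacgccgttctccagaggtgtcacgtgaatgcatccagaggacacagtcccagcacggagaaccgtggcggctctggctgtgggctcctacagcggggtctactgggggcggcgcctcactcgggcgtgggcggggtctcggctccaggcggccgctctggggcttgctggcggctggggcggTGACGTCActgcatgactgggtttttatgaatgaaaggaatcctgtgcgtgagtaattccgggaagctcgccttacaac

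Windows were found for 9 of the 10 genes, 11 windows in all. A gene was counted if any of its windows matched, and Maff had 3, whereas the shares of all windows count each window singly. The CRE half-site was present in 6 of these 9 genes, namely Fos, Fosb, Junb, Atf3, Batf and Maff, and in 20.8% of 32851 promoter windows of the same length. In Fos it began 66 and 129 bases before the start, with a TATAAA match 33 bases before it. In Fosb it began 60 bases before the start. Jun held TGACATCA 45 bases before its start, a match to TGACNTCA, which 8.83% of all windows hold. The TRE and the CArG box were in 0 of the 9 genes' windows, against 7.81% and 1.63% of all windows, and the full CRE was in 1 of the 9, against 1.79%. The windows reach only 250 bases before the start, so sites further upstream were not searched and may exist. TATAAA was in the windows of Fos and Junb, against 13.6% of all windows. The motifs were chosen with these windows in view, and a match is a description of letters. The Jund window held 0 of the motifs, and Jund was the gene with the next largest difference after Jun. Whether the motifs relate to the differences was not tested.

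The values are deposited log values, taken as log2, each set against a baseline of its own probe set that the sources used here do not give. They show how far a probe set lay above or below its own baseline on each array and carry no expression level, so levels cannot be compared between genes. For the same reason the labelled cell type could not be checked through the presence or absence of its markers. Across 28815 probe sets the array medians were -0.03 with IL-3 and -0.05 without IL-3. With 1 array per condition there was no replicate and no test. A difference of 1 on the log2 scale, which is 2-fold, was used as a fixed rule of size. Probe sets of the same gene differed with a pooled SD of 0.14 (998 genes with more than 1 probe set), which measures scatter within these arrays. It can include differences between transcript forms, and the error between arrays is unknown. Fewer cells that contain a transcript and less of it per cell cannot be told apart in RNA of a whole culture.

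With IL-3, Fosb and Fos lay at or past 2-fold lower, Jun and Jund were lower by less than 2-fold, and the other 6 genes differed by 0.36 or less in size. The 2-fold rule thus counted 2 of the 10 genes as lower, against 0.657% of all genes. It counted 0 of the 10 as higher, against 0.441% of all genes. The difference, with IL-3 minus without IL-3, was below 0 in 7 of the 10 genes and in 40.1% of all genes. Its median over the 10 genes was -0.25, against 0.04 over all genes. These counts follow in part from the choice of the genes. In published work on how growth factors protect BCR-ABL cells from imatinib, Fos and Dusp1 are named as induced by the growth factor. The direction given by the titles runs the other way. The cells, times and measures of that work were not compared with those here, so this settles nothing about the labels.

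**Figure D1:**
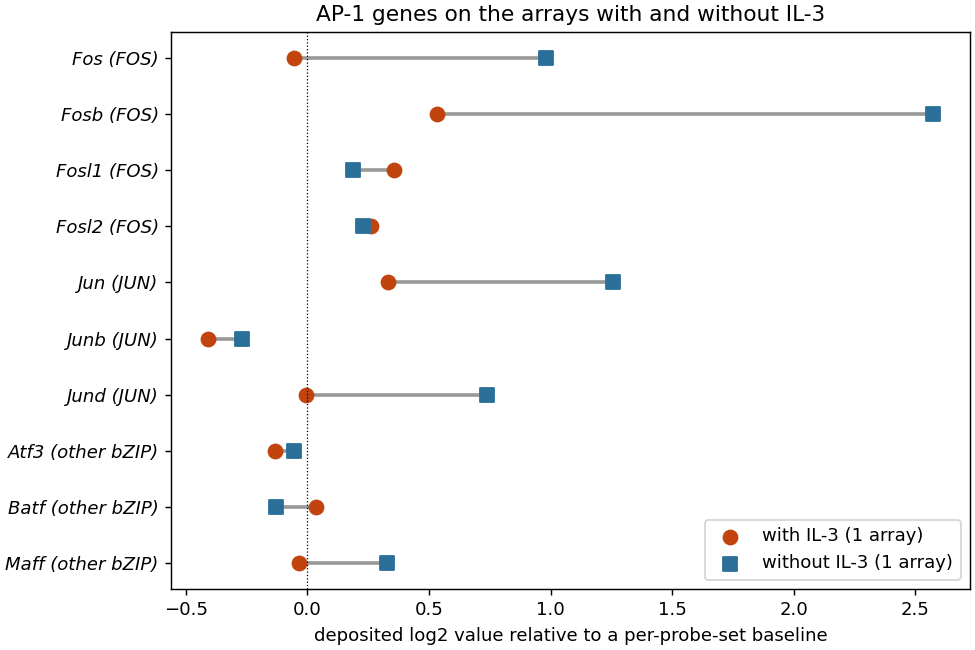
Deposited log2 values (horizontal axis, relative to a per-probe-set baseline) of the 10 AP-1 genes on the array with IL-3 (circles) and the array without IL-3 (squares), 1 array each and no error bar. Fosb, Fos, Jun and Jund have long connecting lines with the square on the right, and Fosl1, Fosl2 and Batf have the circle slightly to the right.

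In the FOS family the genes fell into a pair that differed and a pair that barely did. Fosb, a FOS protein gene also known for its truncated splice form deltaFosB, had a value of 0.53 with IL-3, against 2.57 without IL-3. It was 4.12-fold lower with IL-3, a difference of -2.04. This was the 14th lowest difference of all genes, and the value without IL-3 was the highest of all 28815 probe sets on that array (rank 1, against rank 3626 with IL-3). Such ranks order distances from each probe set's own baseline and are not ranks of expression level. Fos, the prototype immediate early gene, had -0.05 with IL-3 and 0.98 without IL-3. It was 2.05-fold lower, a difference of -1.03, which lies past the 2-fold limit by less than the SD between probe sets of a gene. Its value lay in the middle of the array with IL-3 (rank 15657) and among the top 1.64% of the array without it (rank 472).

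Fosl1 and Fosl2, which encode FRA-1 and FRA-2, lack the strong C-terminal activation domain of FOS. Fosl1 had 0.35 with IL-3, against 0.19 without IL-3. Fosl2 had 0.26 with IL-3, against 0.23 without IL-3. Their differences of 0.17 and 0.03 were 1.12-fold and 1.02-fold, within or close to the SD of 0.14. Fosl1, Fosl2 and Fosb were above their baselines on both arrays. Fos was above its own without IL-3 and lay close to it with IL-3, at -0.05.

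All 3 JUN genes had a difference below 0, and none passed 2-fold. Jun, the main partner of FOS and a target of its own protein, had 0.33 with IL-3 and 1.26 without IL-3. It was 1.90-fold lower, a difference of -0.92, just short of the 2-fold limit. Its rank from the top, by value relative to baseline, was 5519 with IL-3 and 146 without IL-3, within the top 0.507% of that array. Jund, which is expressed in most resting cells and often restrains growth, had -0.01 with IL-3 and 0.74 without IL-3, 1.68-fold lower (difference -0.75). Junb, a JUN gene that can oppose JUN in cell cycle control, was below its baseline on both arrays, at -0.41 with IL-3 and -0.27 without IL-3. Its difference of -0.14 was no larger than the SD between probe sets.

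Among the other 3 genes, Maff had the largest difference. It encodes a small MAF protein, which has a leucine zipper but no activation domain, and had -0.03 with IL-3 and 0.33 without IL-3, 1.29-fold lower (difference -0.36). Atf3, a stress-induced partner of JUN, had -0.13 with IL-3 and -0.06 without IL-3, a difference of -0.08. Batf, a lymphoid and myeloid bZIP factor that pairs with JUN proteins and acts with IRF4, had 0.04 with IL-3 and -0.13 without IL-3, a difference of 0.17.

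From the lowest difference to the highest, the order was Fosb, Fos, Jun, Jund, Maff, Junb, Atf3, Fosl2, Batf and Fosl1. Fosb stood 1.01 below Fos, well beyond the SD between probe sets. Fos and Jun were 0.11 apart, which is within that SD, and Jun and Jund were 0.18 apart, little beyond it. That SD describes differences of probe sets, not gaps between genes. It leaves out the unknown error between arrays, so small gaps do not settle the order. Jund and Maff were separated by 0.38 and Maff and Junb by 0.22. Each step from Junb up to Fosl1 was 0.13 or less, within that SD, so neighbours in this stretch are not separated. The values without IL-3 ranged from -0.27 to 2.57 over the 10 genes, whereas those with IL-3 ranged from -0.41 to 0.53. The genes were thus spread more widely on the array without IL-3.

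**Figure D2:**
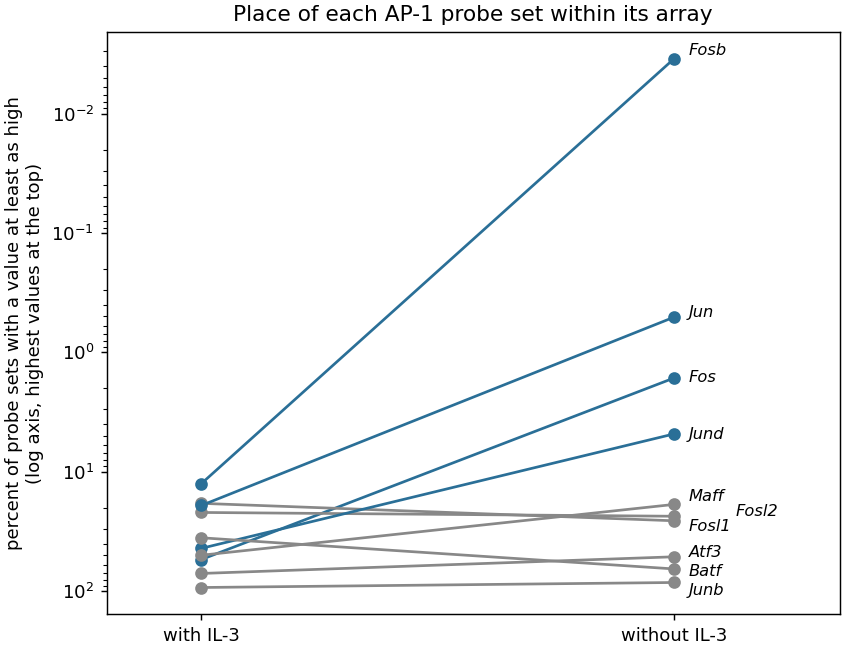
Percent of the 28815 probe sets with a value at least as high as that of each AP-1 gene (vertical log axis, highest values at the top), on the array with IL-3 (left) and without IL-3 (right). The 4 genes with the largest differences (blue) lie between 12.6% and 54.3% with IL-3 and between 0.00347% and 4.82% without IL-3. The other 6 genes (grey) stay below them on the array without IL-3. Values are relative to each probe set's own baseline, so the places are not ranks of expression level.

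Against all genes, the difference of Fosb lay near the lower edge of the plot of all measured genes. The family was chosen with its values known, so the places given here are a description and support nothing. The spread over genes is not the error between arrays. Only 0.0652% of genes had a lower difference than Fosb. The share with a lower difference was 0.622% for Fos, 0.858% for Jun and 1.56% for Jund. It was 6.41% for Maff and 17.4% for Junb. For Fosl1 it was 76.6% and for Batf 76.5%, both inside the broad middle of the distribution, whose robust spread (scaled median absolute deviation) was 0.17. By the distance between pairs of values on both arrays, the gene nearest to Fosb was Chmp1b, a subunit of the ESCRT-III membrane complex, at 0.36 (0.39 with IL-3 and 2.24 without IL-3). Trim12c followed at 0.51 and Dusp1, a MAP kinase phosphatase, at 0.62. The genes nearest to Fos were the acetyl-CoA synthetase gene Acss2, Rgl1, a RAL guanine nucleotide exchange factor gene, and Plac8, at distances of 0.03, 0.03 and 0.04. Likeness over 2 arrays is a description only.

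**Figure D3:**
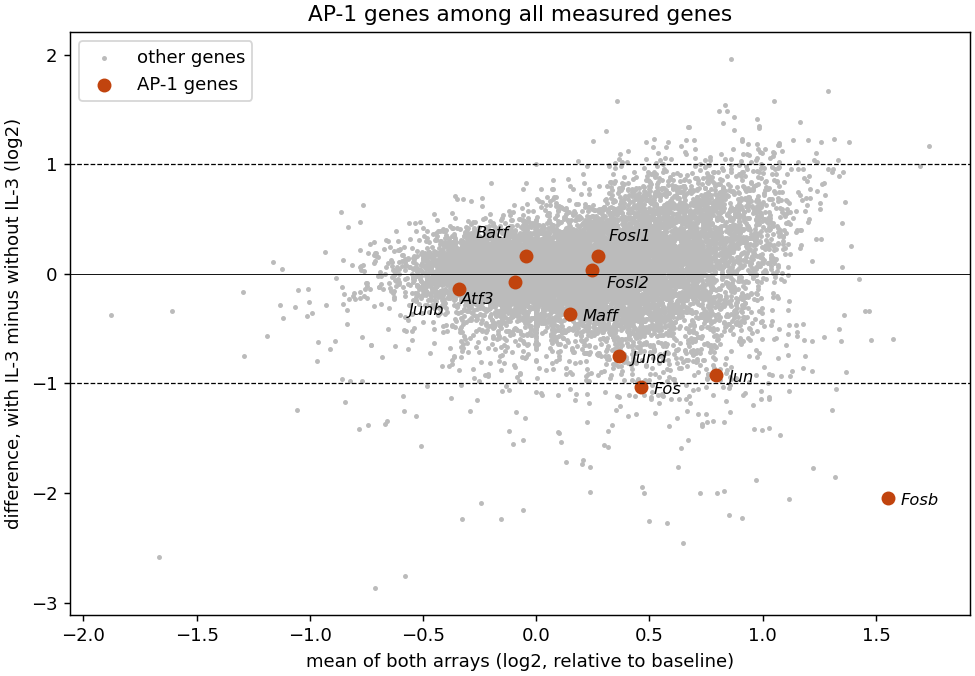
Difference with IL-3 minus without IL-3 (vertical axis, log2) against the mean of both arrays (horizontal axis, log2 relative to baseline) for 19935 genes (grey), with the 10 AP-1 genes named (red) and dashed lines at 2-fold. Fosb lies at the right-hand lower edge at -2.04, Fos, Jun and Jund lie near the lower dashed line, and the other 6 lie within the cloud.

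Genes next to these on the chromosomes differed by less than 2-fold. By gene order in GRCm38.p6, the nearest measured genes on either side of the 10 genes were 19 different genes, with differences between -0.62 and 0.66. Over all genes only 0.657% were lower and 0.441% higher by the 2-fold rule, so the count of 0 lies near those shares. Fos lies on chromosome 12 in a row with Jdp2, the gene of a repressor that dimerises with JUN, and Batf, with no other measured gene between them. The differences of this row were -1.03 for Fos, 0.29 for Jdp2 and 0.17 for Batf. Fosb on chromosome 7 lies between Rtn2, at -0.02, and the DNA repair gene Ercc1, at 0.09. Jun on chromosome 4 has as neighbours Mysm1, a histone H2A deubiquitinase gene, at -0.62, and Fggy at 0.08. Jund on chromosome 8 lies between Lsm4, an RNA-processing gene with a difference of 0.66, and Iqcn at -0.17.

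The other bZIP genes, which include dimer partners of these proteins, differed by less than 2-fold. Of 31 measured, 21 were below 0, against 40.1% of all genes, with a median of -0.14. By the 2-fold rule 0 were lower and 0 higher, against 0.657% and 0.441% of all genes, and 3 would be lower if the values are natural logs. The largest difference was that of Bach1, a haem-regulated repressor, at -0.47 with IL-3 and 0.48 without IL-3 (1.93-fold lower). Cebpd, a C/EBP factor of acute-phase and myeloid gene expression, came next at 1.66-fold lower. On the other side, Jdp2 had the highest difference of the list at 0.29.

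Other immediate early genes were mixed. The 2-fold rule counted 5 of 38 measured genes as lower and 0 as higher, against 0.657% and 0.441% of all genes. Of the 38, 28 were below 0, against 40.1% of all genes, and the median was -0.12. With natural logs the count of lower genes would be 8. Dusp1 had 0.09 with IL-3 and 2.14 without IL-3, 4.14-fold lower. The zinc finger factor gene Klf6 was 2.78-fold lower, Rgs2, a regulator of G protein signalling, was 2.55-fold lower, and Zfp36, whose product speeds decay of AU-rich mRNAs, was 2.50-fold lower. Btg2, an antiproliferative gene, completed the count at 2.03-fold lower. Several classical members, named here after their values were seen, differed little. Egr1, an SRF target like Fos, had -0.10 with IL-3 and -0.02 without IL-3. Nr4a1, an orphan nuclear receptor gene, differed by 0.17. Myc and the ERK phosphatase gene Dusp6 were 1.31-fold and 1.32-fold higher. Egr1 thus differed by -0.08, where Fos differed by -1.03.

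The transcripts of kinases and SRF cofactors that act on FOS and JUN genes gave a median of -0.02 over 22 measured genes. On the deposited values 0 of these passed 2-fold, near the shares of all genes (0.657% lower and 0.441% higher). After quantile normalization or with the loess trend subtracted 1 was lower by the 2-fold rule, and with natural logs 1 was lower and 1 higher. The 2 largest differences were those of Mrtfa, an actin-regulated SRF coactivator, at 1.95-fold lower, and of Mapk11, the p38 beta kinase gene, at 1.85-fold higher. Srf itself differed by 0.04 and Mapk8, the gene of JNK1, by -0.19. Both were chosen with their values already known. These are transcripts, and kinase activity was not measured. Ubiquitin ligases and repressors that act on AP-1 proteins had a median of 0.10 over 11 genes, with 0 past 2-fold, again near the shares of all genes. The histone deacetylase gene Hdac3 was 1.56-fold higher and Cop1, a ubiquitin ligase gene whose product targets JUN, 1.37-fold lower.

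Genes known as AP-1 targets had a median of 0.01, near that of all genes. Of 31 measured genes 13 were below 0, near the 40.1% of all genes. By the 2-fold rule 2 of the 31 were lower and 0 were higher, against 0.657% and 0.441% of all genes. These 2 were the chemokine gene Ccl3, with -1.14 with IL-3 and 1.02 without IL-3 (4.45-fold lower), and the cytokine gene Il6, with 0.02 with IL-3 and 1.17 without IL-3 (2.21-fold lower). Both are also induced by other factors such as NF-kB. Ccnd1, the cyclin D1 gene, differed by 0.00, and Cd44, an adhesion receptor gene, by -0.80. Both were picked out afterwards.

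Markers of other blood cell types moved with the AP-1 genes in part. By the 2-fold rule 4 of 11 eosinophil and neutrophil granule markers were lower with IL-3 and 0 higher, against 0.657% and 0.441% of all genes. The list's mean value was -0.63 with IL-3, against 0.24 without IL-3, but its median difference was only -0.10. Of the 11, 8 were below 0, against 40.1% of all genes. The 4 past 2-fold were Ngp, Prg2, Ear6 and Epx, by 7.31-fold, 6.77-fold, 4.73-fold and 4.25-fold. S100a9, Mpo and S100a8 had differences above 0, at 0.38, 0.17 and 0.16. By the same rule 3 of 11 mast cell and basophil markers were lower, namely Fcer1a (5.49-fold), Cpa3 (2.16-fold) and Cma1 (2.14-fold), and 0 were higher. The list mean was -0.18 with IL-3, against 0.31 without IL-3, and the median difference was -0.09. Of these 11 markers, 6 were below 0, against the same 40.1% of all genes. Tpsb2 and Kit had differences of 0.19 and 0.18. Of 9 macrophage and 9 B-lineage markers, 0 passed 2-fold, near the shares of all genes. The list medians were -0.03 and 0.06, and 5 and 2 members were below 0, against 40.1% of all genes. With natural logs 1 macrophage marker would be lower. In the macrophage list Adgre1 had the lowest difference, at -0.79, and in the B-lineage list Cd79a had the lowest, at -0.35. Whether these markers have a part in the AP-1 differences was not tested.

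**Figure D4:**
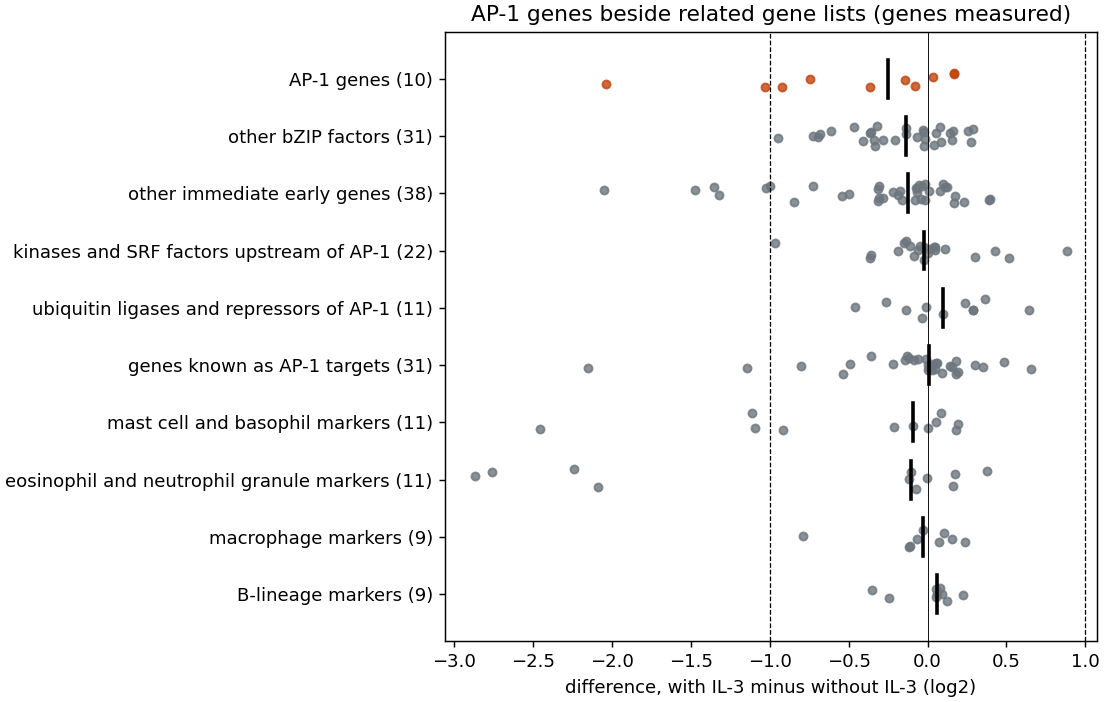
Difference with IL-3 minus without IL-3 (horizontal axis, log2) of every measured gene in the AP-1 set (red) and in 9 related lists (grey), with the number measured in brackets, medians as black bars and dashed lines at 2-fold. The AP-1 median is -0.25, the lists' medians lie between -0.14 and 0.10, and no gene lies at or beyond the right-hand dashed line.

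Fosb, Fos, Jun and Jund had the 4 lowest differences under each scaling tried. Fos and Fosb were past 2-fold under each scaling and log base, with differences between -1.49 and -1.03 for Fos and between -2.95 and -1.94 for Fosb. Jun reached 2-fold narrowly after quantile normalization, and after subtraction of a loess trend it had -1.15, below Fos at -1.11. If the deposited values are natural logs, Jun and Jund pass it as well, at -1.33 and -1.08. Fosb had -2.66 after the loess trend was subtracted and -2.95 if the values are natural logs. All 10 genes kept the sign of their difference under these scalings.

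**Figure D5:**
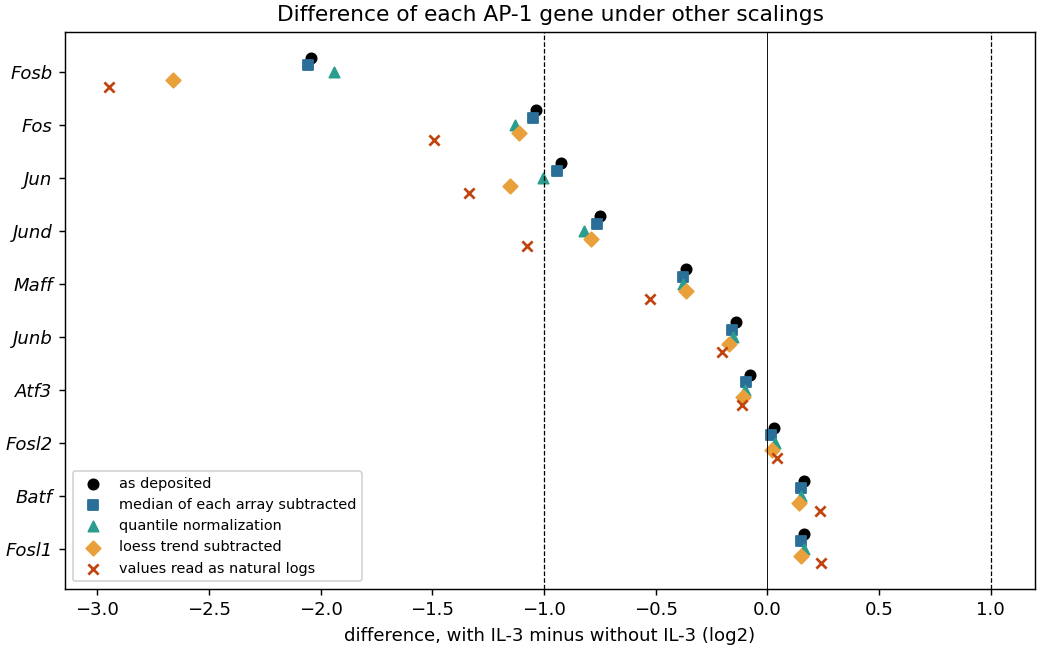
Difference with IL-3 minus without IL-3 (horizontal axis, log2) of each AP-1 gene, ordered from the lowest, for the deposited values and 4 alternatives, with dashed lines at 2-fold. Fosb and Fos lie left of the lower dashed line under each, Jun lies on both sides of it, and Jund lies beyond it only where values are read as natural logs.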

How the data were processed

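Total RNA (miRNeasy kit) was turned into biotin-labelled sense-strand cDNA and hybridised to Affymetrix mouse Gene 1.0 ST arrays, per the labels' protocols, 1 array per condition. The authors deposited log values, taken here as log2, for 28815 probe sets, relative to a per-probe-set baseline, as the values show: in 1760 probe sets the values of both arrays sum to within 1e-05 of 0. Summarisation, normalization, log base, baseline arrays and the meaning of a higher value (read as higher expression) are unstated in these sources, and further arrays are not analysed here.

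Of the probe sets, 21780 carried 1 gene symbol in the platform annotation, 1605 several and 5430 none, and only the first were used. The probe set with the highest mean of both arrays stood for a gene, giving 19935 genes. Each difference subtracts the value without IL-3, and p-values or errors between conditions could not be computed. The AP-1 genes and all lists were chosen with earlier results of these data known. Every AP-1 gene is named; from each list, members past 2-fold (the 4 largest per direction, others to complete a count) or else the 2 largest in size, and exceptions are marked. List symbols were updated through RefSeq synonyms. Alternatives were array scaling (median, quantile, loess with span 0.3), probe set choice, log base, a filter and the sign. Calculations used Python 3.11.15, numpy 2.4.6, pandas 2.3.3 and statsmodels 0.14.6, and were tested on simulated data.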

Additional observations from a re-analysis of the deposited data

How the results depend on the processing

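The count of AP-1 genes at least 2-fold lower was 2 on the deposited values, and also after median centring, under each of the 3 other probe set choices and under the filter; it was 3 after quantile normalization and after the loess trend was subtracted, and 4 if the values are natural logs. The count at least 2-fold higher was 0 under each of these. The median difference of the 10 genes was between -0.27 and -0.25 under the scalings and probe set choices, and -0.36 with natural logs. It was -0.55 under the filter at the array median in at least 1 array, which dropped Junb and Atf3 and left 8 genes. That shift follows from the loss of these genes, whose differences were small (-0.14 and -0.08). Fos passed the filter only through the array without IL-3, where its value was higher. With the sign turned, which the conflicting labels allow, the lower count becomes 0, the higher count 2, the median 0.25, Fos 1.03 and Fosb 2.04.

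Over all genes the higher ones made up 40.2% of those past 2-fold on the deposited values and 37.9% after median centring, but 27.8% after quantile normalization (62 higher, 161 lower), 12.4% after the loess trend was subtracted (29 higher, 205 lower) and 52.8% with natural logs (419 higher, 375 lower). Under the same filter the list medians were -1.10 for granule markers, -1.01 for mast cell and basophil markers, -0.32 for other bZIP genes and -0.30 for B-lineage markers. These medians depend on which genes the filter kept, by values relative to baseline, and support nothing further. Ngp, Prg2, Ear6, Epx, Fcer1a, Cpa3, Cma1 and Ms4a2 passed it only through the array without IL-3, where they were higher. Genes dropped included Mpo, S100a9, Kit and Tpsb2, with differences above 0, and Camp and Mcpt8, with differences below 0. Of the B-lineage list the filter kept only Cd79a and Cd79b, at -0.35 and -0.24, and dropped all 7 members with differences above 0. No paired analysis was possible because each condition has 1 array and no test was made, and leaving out a replicate was not possible for the same reason. The number of arrays limits the precision: array-to-array error is unknown, and each AP-1 gene rests on 1 probe set.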

Other observations

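Maff encodes a partner of the CNC-bZIP factors, and the other measured small MAF and CNC-bZIP genes of the bZIP list are given here as values. They were singled out after values had been seen, and 0 of them passed 2-fold, near the shares of all genes (0.657% lower and 0.441% higher). Among the small MAF genes, Mafk had 0.00 with IL-3 and 0.69 without IL-3 (1.60-fold lower), and Mafg had 0.09 with IL-3 and 0.41 without IL-3 (1.25-fold lower). The differences of the CNC-bZIP genes were -0.95 for Bach1, a repressor, -0.61 for Nfe2, -0.41 for Nfe2l2, which encodes NRF2, -0.14 for Bach2 and 0.04 for Nfe2l1. Hmox1, Gclc, Nqo1 and Gclm, also known as targets of NRF2 or BACH1, were picked from the AP-1 target list with values known and went both ways. No list of NRF2 or BACH1 targets was drawn up. The haem oxygenase gene Hmox1 had 0.83 with IL-3 and 0.18 without IL-3, a difference of 0.66, and Gclc, of glutathione synthesis, had a difference of 0.19. The quinone reductase gene Nqo1 and Gclm, also of glutathione synthesis, had differences of -0.49 and -0.36.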
